A study of Mus musculus with 60 samples.

Results

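The RNA of the genes that lie around Pon2 on proximal mouse chromosome 6 was examined in the brains of PON2-deficient and wild-type mice. The window held every gene of the deposited counts that GENCODE M21 (GRCm38) starts at or before position 25298455 of chromosome 6, within 20 Mb of Pon2 (chr6:5264147-5298455, minus strand). Pon2, Pon3 and 8 other genes of the imprinted and paraoxonase neighbourhood that were measured in the window (among them Peg10, Sgce, Asb4 and Ppp1r9a) were left out. This gave 79 of the 20423 genes in the table, 58 of them protein-coding, with 12 between the centromere and Pon2 (proximal) and 67 beyond Pon2 (distal). GENCODE lists 280 genes in the window, 84 of them protein-coding. Apart from the genes left out by name, membership rested on position and on no measured value, although the window was chosen with earlier results of these data known.

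Cortex, striatum and cerebellum were each sampled in 4 groups of 5 libraries, namely PON2-deficient females, PON2-deficient males, wild-type females and wild-type males, 60 libraries in all. PON2-deficient mice were homozygous for the Pon2 deficiency, and wild-type mice were their littermates from crosses of heterozygotes on the C57BL/6J background. All groups had gone through behavioural tests and were killed at 3 to 4 months of age, in cohorts added over time. The labels do not give the design of the Pon2 allele, the strain in which it was made or whether libraries with equal numbers come from the same mouse, so p-values reflect only the scatter among these libraries, which may be partly technical.

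When an allele is made in one strain and bred onto another, chromosomal segments on both sides of the allele are carried along with it. In a cross of heterozygotes, homozygous mutants then also inherit the linked segment, and wild-type littermates inherit the other version of it. RNA of linked genes can therefore differ between such littermates because of the linked sequence, or because the altered allele changes transcription of its neighbours. Recombination makes such sharing less frequent with distance, which is why the genes below are set out by their distance from Pon2.

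Library totals lay between 26091911 and 28125224 counts, and the window genes together took 0.218 to 0.294% of them. Pon2 itself was measured first. In cortex it had a lowest, median and highest value of 2.34, 3.28 and 5.62 CPM (counts relative to the library total, scaled by TMM) in PON2-deficient libraries, against 50.2, 56.5 and 58.9 CPM in wild-type libraries. In striatum these were 2.54, 3.69 and 6.91 CPM in PON2-deficient libraries and 44.7, 51.0 and 56.8 CPM in wild-type libraries, and in cerebellum 0.457, 0.631 and 1.26 CPM against 39.2, 41.4 and 51.3 CPM. The genotypes did not overlap in any region, and Xist and Ddx3y matched the labelled sex in all 60 libraries. Markers fitted the dissected regions: the mean log2 CPM of 8 cerebellar neuron genes lay between 9.68 and 9.82 in cerebellum and reached at most 3.94 elsewhere, and that of 7 striatal projection neuron genes lay between 8.02 and 8.96 in striatum and reached at most 6.29 elsewhere. One library stood apart: PON2-deficient male 5 in striatum held the highest or the lowest striatal value for 53.2% of the 77 window genes tested, and for 56.2% of all genes tested in striatum.

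In each region taken alone, no window gene passed the test for a difference between the genotypes. With edgeR's quasi-likelihood test and Benjamini-Hochberg adjustment over all genes, 0 of 77 window genes passed an adjusted p of 0.05 in cortex, 0 of 77 in striatum and 0 of 68 in cerebellum, where 0.0316%, 0.0105% and 0.0321% of all tested genes passed. An unadjusted p under 0.05 was reached by 7 window genes in cortex (9.09%, against 11.4% of all genes tested), 2 in striatum (2.60%, against 4.94%) and 9 in cerebellum (13.2%, against 11.1%). These shares lie near the background of the whole table. DESeq2 on the same counts passed 2 window genes in cortex (Gm44250 and Cttnbp2, against 1.25% of all genes), 0 in striatum (0.0369%) and 2 in cerebellum (Gm44250 and Lsm8, against 1.30%). In no region did a window gene have all 10 PON2-deficient libraries on one side of all 10 wild-type libraries, a separation that held for 0.0105%, 0.0105% and 0.0107% of all genes in cortex, striatum and cerebellum.

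Without their sign, the log2 changes of the window genes had a median of 0.063 in cortex, 0.0884 in striatum and 0.0732 in cerebellum. Over all genes tested these medians were 0.0638, 0.0734 and 0.0664, lower than those of the window genes in striatum and cerebellum. The log2 changes (PON2-deficient over wild-type, averaged over the sexes) of the window genes had a median of -0.022 in cortex with 31 higher and 46 lower, 0.0169 in striatum with 40 higher and 37 lower, and -0.0192 in cerebellum with 32 higher and 36 lower. Over all genes tested the medians of the signed changes were -0.0006, 0.0098 and 0.0009. For 44 of the 67 window genes averaging 1 CPM or more in cortex (65.7%), the 95% interval of the change lay within 1.2-fold in either direction, as it did for 67.0% of all such genes. In cerebellum this was so for 36 of 65 window genes (55.4%, against 66.0%), and in striatum for 29 of 68 (42.6%, against 47.5%). Of 66 window genes tested in all 3 regions, 9 were higher in each and 14 were lower in each, together 34.8% against 33.5% of all genes. Because these were bulk tissues, fewer cells of a type and less RNA per cell cannot be told apart for any gene described here.

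**Figure D1:**
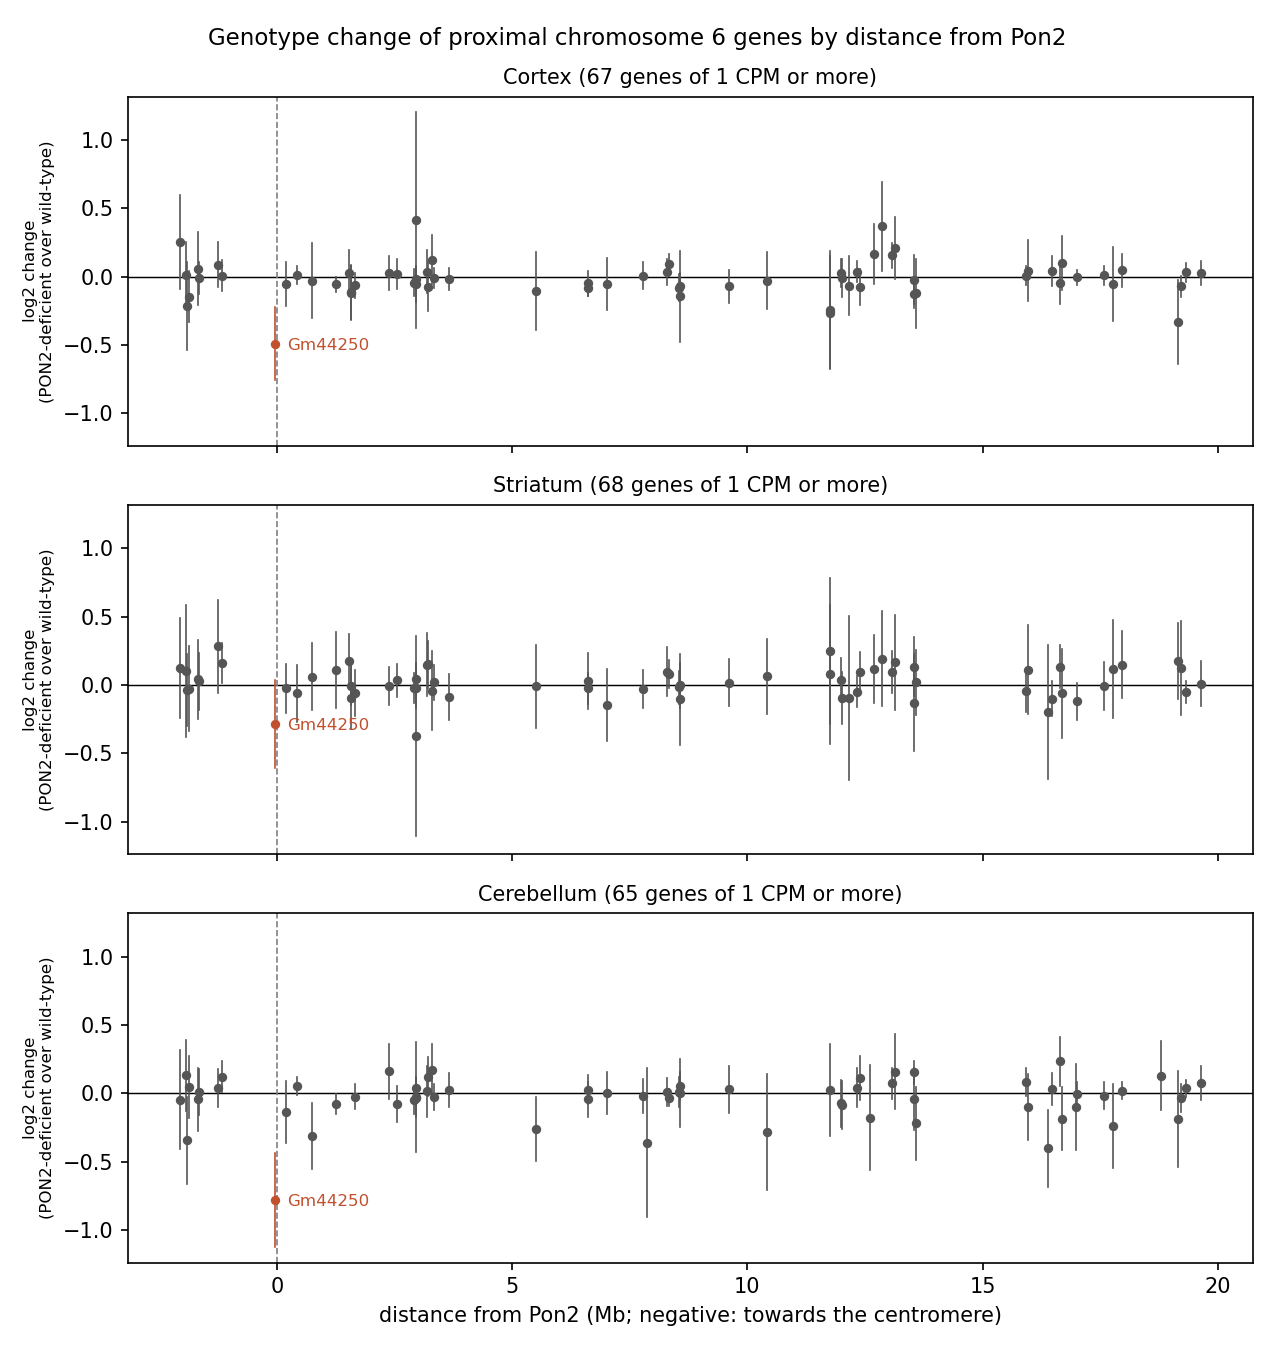
Log2 change of each window gene that averaged 1 CPM or more in either genotype (points, with 95% intervals from edgeR) against its distance from Pon2 in Mb, in cortex (67 genes), striatum (68) and cerebellum (65); the dashed line marks Pon2 and negative distances lie towards the centromere. Gm44250, coloured and named, sits beside Pon2 and lies lowest in cortex and cerebellum, and the intervals of most other genes span 0 at every distance.

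The medians of the signed changes formed no gradient with distance from Pon2. Within 2 Mb of Pon2 (19 genes) the median log2 change was -0.0553 in cortex, -0.025 in striatum and -0.0251 in cerebellum, and between 2 and 5 Mb (13 genes) it was 0.0181, 0.0202 and -0.0257. At 5 to 10 Mb (12 genes) the medians were -0.0663, -0.0106 and 0.0028, and at 10 to 20 Mb (35 genes) they were -0.017, 0.051 and -0.0268. The bin medians of a region thus differed by at most 0.0844, and in no region did they rise or fall steadily with distance. Without sign, the medians from the nearest to the farthest bin were 0.063, 0.036, 0.0711 and 0.0674 in cortex. They were 0.0615, 0.0443, 0.0294 and 0.107 in striatum, and 0.0788, 0.0456, 0.0276 and 0.1006 in cerebellum. In cerebellum, 5 of the 13 genes tested within 2 Mb had an unadjusted p under 0.05 (Gm44250, Bet1, Slc25a13, Sem1 and Gm20559, the last named after its values were seen), where 11.1% of all genes tested in cerebellum did, against 1 of 19 in cortex and 1 of 19 in striatum. Proximal and distal genes had medians of -0.001 and -0.0279 in cortex, -0.0006 and 0.0169 in striatum, and 0.008 and -0.0205 in cerebellum.

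Gm44250 was the one window gene whose RNA changed with genotype in the fit over all 3 regions, where 1.29% of all genes passed and 0.945% of the other chromosome 6 genes. That fit counted the libraries as separate, although equal numbers across regions may come from 1 mouse. Gm44250 is a transcript of the class that GENCODE marks as to be experimentally tested, 4229 bases long, on the minus strand at chr6:5216258-5220486, 0.044 Mb from Pon2. It fell by 0.52 on the log2 scale (SE 0.09, 95% interval -0.70 to -0.34, adjusted p = 0.00066, edgeR's quasi-likelihood test), and an unadjusted p under 0.05 was reached by 12 of 79 window genes (15.2%, against 12.9% of all genes). Its end lies 365 bases from Pon3 in GENCODE, and in RefSeq (GRCm38.p6) the span of Pon3 itself, chr6:5216256-5256285, covers it. Reads of Gm44250 and of a longer Pon3 transcript therefore cannot be told apart, and neither can an effect of linked sequence and one of the Pon2 allele itself.

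In cortex Gm44250 had a lowest, median and highest value of 2.77, 3.32 and 4.37 CPM in PON2-deficient libraries, against 3.76, 4.41 and 8.55 CPM in wild-type libraries. The ranges overlapped between 3.76 and 4.37 CPM, and the means were 3.47 ± 0.502 CPM and 4.87 ± 1.43 CPM (SD, n = 10 each), a log2 change of -0.49 (SE 0.13, adjusted p = 0.124, edgeR). In cerebellum it had 2.63, 3.44 and 6.36 CPM in PON2-deficient libraries, against 4.32, 6.57 and 8.74 CPM in wild-type libraries. There the means were 3.82 ± 1.17 and 6.58 ± 1.51 CPM (SD, n = 10 each), a log2 change of -0.78 (SE 0.16, adjusted p = 0.0817, edgeR), and most PON2-deficient libraries lay below the lowest wild-type one. A single edgeR fit over all libraries passed Gm44250 alone of the window genes in cerebellum, where 0.0638% of all genes passed. Without PON2-deficient male 3, the highest of its group, the cerebellar change was -0.92 with an adjusted p of 0.0116 in edgeR. Of the 20 fits that each left out 1 library, only this 1 passed, and the adjusted p-values reached 0.162 (edgeR). In striatum the groups overlapped most, with 2.67, 3.54 and 7.18 CPM in PON2-deficient libraries and 3.33, 4.66 and 6.41 CPM in wild-type libraries (log2 change -0.29, adjusted p = 0.995, edgeR).

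The direction of Gm44250 was the same in both sexes of every region. The log2 changes in females and males were -0.48 and -0.50 in cortex, -0.26 and -0.31 in striatum, and -0.76 and -0.80 in cerebellum. The test of a difference between the striatal and cerebellar effects gave 0.50 (SE 0.22, adjusted p = 0.81, edgeR), and that between cortex and cerebellum 0.29 (SE 0.22). With its counts added to those of Pon3 as 1 gene, the change over the 3 regions was -0.51 with an adjusted p of 0.00196 (edgeR). Pon3 alone averaged 1.05 ± 0.604 CPM in PON2-deficient and 2.43 ± 1.04 CPM in wild-type cerebellum (SD, n = 10 each), and 1.28 ± 0.548 against 1.53 ± 0.547 CPM in cortex. In striatum Pon3 was nearly equal, with 1.49 ± 0.517 CPM in PON2-deficient and 1.51 ± 0.393 CPM in wild-type libraries (SD, n = 10 each). Choroid plexus markers (15 of 15 measured, none at 0 in all libraries of a group) summed to 163 to 4220 CPM in PON2-deficient and 947 to 3610 CPM in wild-type cerebellum. With the mean log2 level of these markers as a covariate, the change of Gm44250 was -0.57 in cerebellum (adjusted p = 0.0708, edgeR), -0.42 in cortex and -0.24 in striatum.

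**Figure D2:**
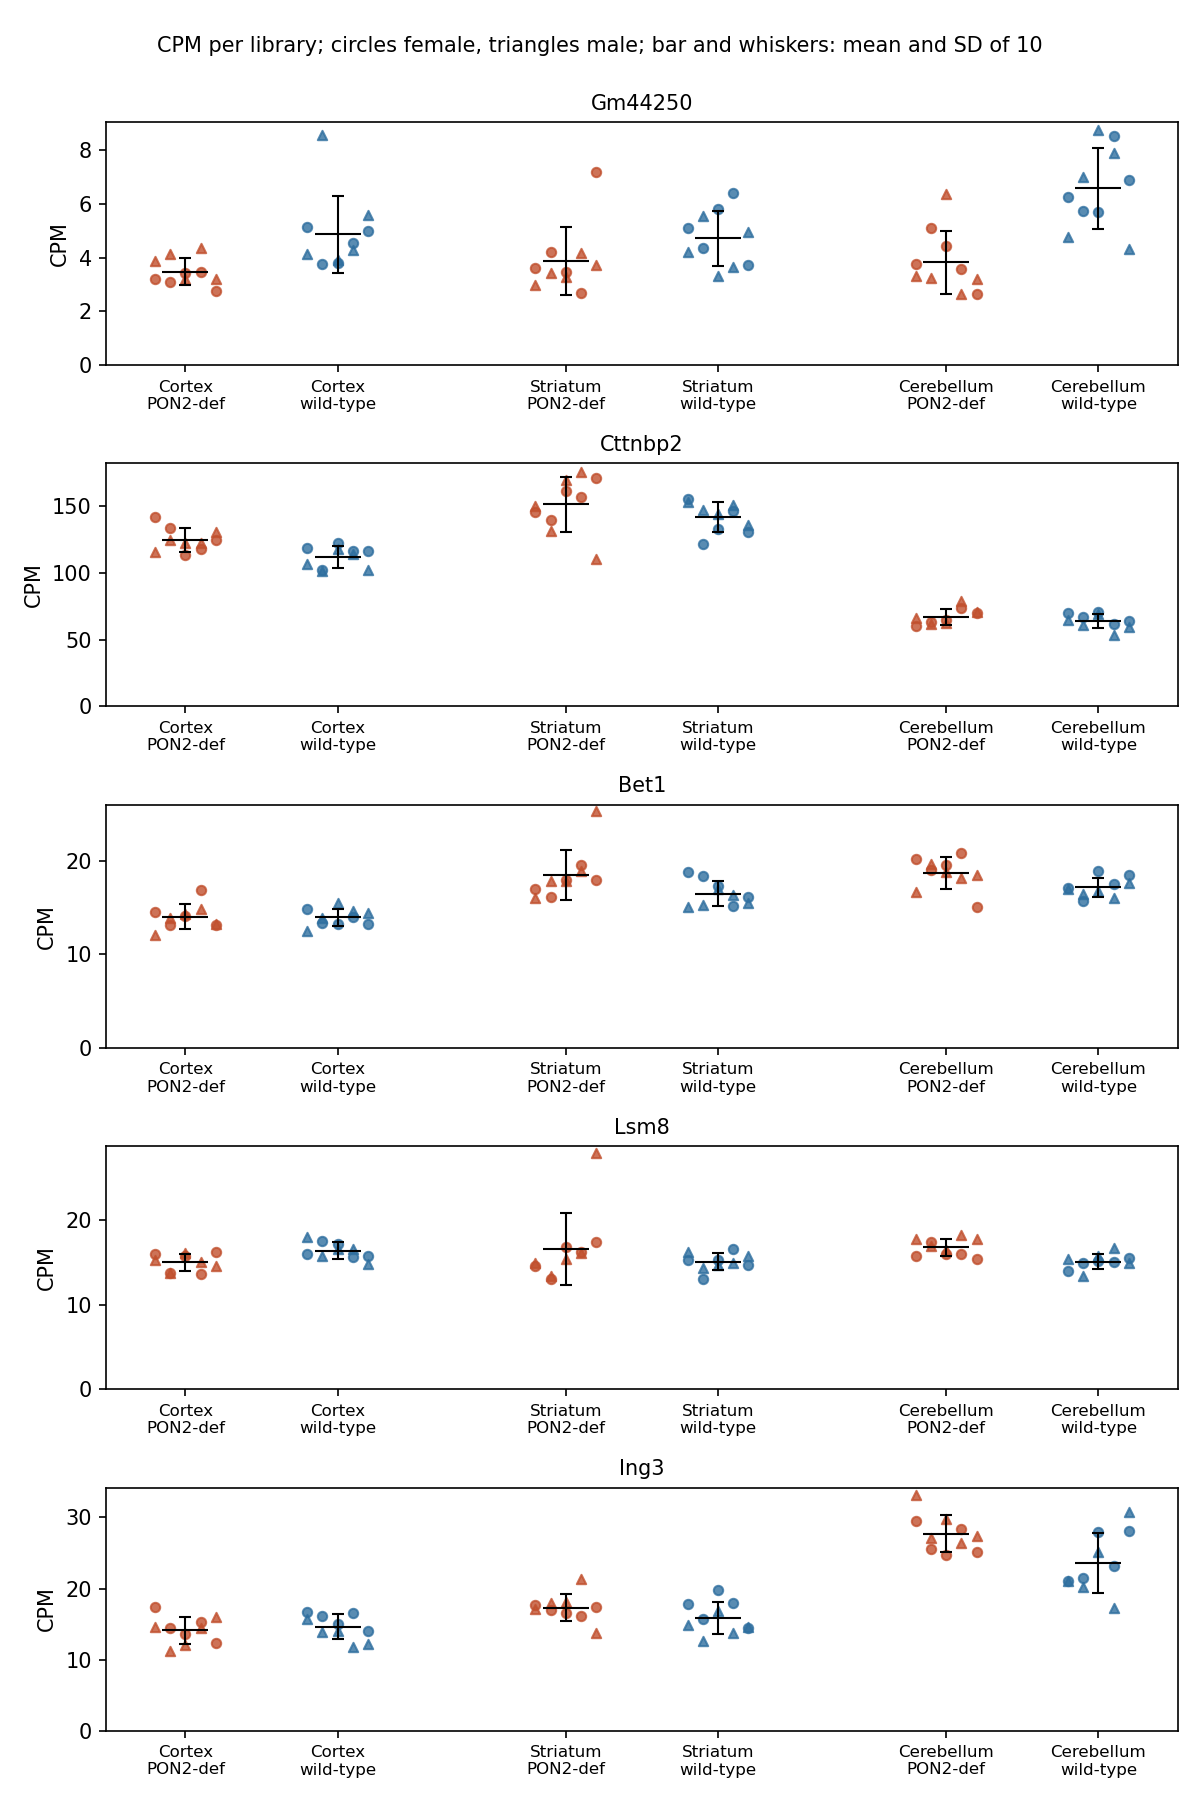
CPM of Gm44250, Cttnbp2, Bet1, Lsm8 and Ing3 in each library of cortex, striatum and cerebellum, PON2-deficient left of wild-type (circles female, triangles male, bars the mean and SD of 10 libraries). Gm44250 is lower in PON2-deficient cerebellum (2.63 to 6.36 CPM) than in wild-type cerebellum (4.32 to 8.74 CPM), with overlap. The genotypes also overlap for the other genes in every region, including Lsm8 in cerebellum, whose PON2-deficient libraries lie higher. In striatum, 1 PON2-deficient male lies far above the rest for Bet1 and Lsm8.

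Among proximal genes that averaged 1 CPM or more in some group, the nearest to Pon2 after Gm44250 were Bet1, Gng11 and Vps50. Bet1, which encodes a SNARE of transport between endoplasmic reticulum and Golgi, lies 1.18 Mb away. In striatum it had 16.0, 17.9 and 25.3 CPM (lowest, median and highest) in PON2-deficient libraries and 15.02, 16.2 and 18.8 CPM in wild-type libraries, a log2 change of 0.16 (unadjusted p = 0.034, adjusted p = 0.982, edgeR) that was 0.10 without PON2-deficient male 5. In cerebellum it had 15.02, 18.9 and 20.8 CPM in PON2-deficient libraries and 15.6, 17.1 and 18.9 CPM in wild-type libraries, a log2 change of 0.12 (adjusted p = 0.417, edgeR). The groups overlapped in both regions, and in cortex the change was 0.01. Over the 3 regions Bet1 was at 0.10 (adjusted p = 0.176, edgeR). Gng11, a gamma subunit of G proteins, had 10.4, 12.6 and 32.0 CPM in PON2-deficient striatum and 9.71, 11.3 and 15.9 CPM in wild-type striatum. Its log2 change of 0.28 there was 0.08 without PON2-deficient male 5 and 0.15 with limma on the deposited log2 values. Vps50, a subunit of an endosomal recycling complex, differed by -0.01 in cortex, 0.03 in striatum and 0.01 in cerebellum.

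On the distal side the nearest genes at that level were Pdk4, Dync1i1, Slc25a13 and Sem1. Pdk4, the kinase that switches off pyruvate dehydrogenase, lies 0.185 Mb from Pon2 and had 7.29, 8.75 and 9.81 CPM in PON2-deficient cortex, against 6.45, 9.62 and 10.6 CPM in wild-type cortex. Its log2 changes were -0.06 in cortex, -0.03 in striatum and -0.14 in cerebellum, all with overlapping groups. Dync1i1, an intermediate chain of cytoplasmic dynein, lies 0.427 Mb away and was measured more tightly, with log2 changes of 0.01 (SE 0.03) in cortex and 0.05 (SE 0.03) in cerebellum. Slc25a13, the mitochondrial aspartate and glutamate carrier citrin, had 2.32, 3.39 and 4.76 CPM in PON2-deficient cerebellum and 3.33, 4.26 and 5.53 CPM in wild-type cerebellum. This was a log2 change of -0.31 (SE 0.12, adjusted p = 0.296, edgeR), beside -0.03 in cortex and 0.06 in striatum, and it was -0.19 (adjusted p = 0.483) with the choroid plexus markers as a covariate.

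Farther out, Cttnbp2 came closest to the threshold. It encodes a cortactin-binding protein of dendritic spines and lies 13.1 Mb from Pon2. In cortex it had 113, 124 and 142 CPM (lowest, median and highest) in PON2-deficient libraries, against 101, 115 and 123 CPM in wild-type libraries. The groups overlapped between 113 and 123 CPM, and the log2 change was 0.16 (SE 0.04, adjusted p = 0.141, edgeR), with 0.13 in females and 0.18 in males. In striatum it had 111, 154 and 176 CPM in PON2-deficient libraries and 122, 146 and 156 CPM in wild-type libraries, and in cerebellum 60.6, 65.7 and 78.9 CPM against 53.5, 64.2 and 70.9 CPM. These log2 changes were 0.09 and 0.07, and over the 3 regions the change was 0.11 (adjusted p = 0.109, edgeR). Without PON2-deficient male 5 of striatum it was 0.12 with an adjusted p of 0.0154 (edgeR). Only this 1 of the 60 fits with a library left out passed, and the adjusted p-values reached 0.161 (edgeR). Limma on the deposited log2 values, without and with a replicate block, passed 2 window genes each time over the 3 regions, Gm44250 and Cttnbp2. Of all genes, 4.01% and 3.20% passed in these fits. DESeq2 passed Gm44250 alone (2.08% of all genes). Reads of Cttnbp2 may be shared with Gm15594 and Gm43843, which overlap it.

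Genes of metabolism and mitochondria gave no shared direction over the regions. Of 8 measured (Pdk4, Slc25a13, Asns, Sdhaf3, Ndufa4, Ndufa5, Aass and Glcci1), 1 was higher and 7 lower in cortex, 5 higher and 3 lower in striatum and 3 higher and 5 lower in cerebellum, and 0 passed the test in any region. Glcci1 was counted in this list although its name refers to induction by glucocorticoids. Ndufa4, a small subunit of the respiratory chain, had 151, 159 and 165 CPM in PON2-deficient cortex and 152, 167 and 179 CPM in wild-type cortex. Its log2 change was -0.08 (SE 0.03, adjusted p = 0.256, edgeR) in cortex, with overlapping groups, and 0.03 in both striatum and cerebellum. Ndufa5, a subunit of complex I, differed by -0.07 in cortex. Asns, which makes asparagine, had 55.4, 59.5 and 99.4 CPM in PON2-deficient cerebellum and 53.2, 57.6 and 75.95 CPM in wild-type cerebellum (log2 change 0.16, adjusted p = 0.567, edgeR). The PON2-deficient range reached higher, and the change was 0.07 when PON2-deficient female 1 was left out, or 0.10 when PON2-deficient male 3 was.

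Transcription and chromatin genes numbered 8, and 0 passed. In cortex 1 was higher and 7 lower, in striatum 5 higher and 3 lower, and in cerebellum, where 4 were tested, 2 higher and 2 lower. Ing3, a subunit of the NuA4 histone acetyltransferase complex, had 24.7, 27.2 and 33.1 CPM in PON2-deficient cerebellum and 17.2, 22.3 and 30.8 CPM in wild-type cerebellum. The groups overlapped, and the log2 change was 0.23 (SE 0.09, adjusted p = 0.302, edgeR), beside -0.05 in cortex and 0.13 in striatum. Foxp2, a transcription factor of striatal and Purkinje neurons, differed by -0.07, 0.02 and 0.03 in cortex, striatum and cerebellum. Dlx6 and Dlx5, homeobox genes of forebrain GABAergic neurons, differed by -0.09 and 0.00 in striatum, where they were highest, and the antisense gene Dlx6os1 by 0.17, or 0.11 without PON2-deficient male 4.

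Trafficking and secretion genes (9 measured, 0 passing) were 4 higher and 5 lower in cortex and in striatum, and 5 higher and 4 lower in cerebellum. Cadps2, a priming factor for dense-core vesicles, differed by 0.05 in cortex, 0.15 in striatum and 0.02 (SE 0.03) in cerebellum, where it was most abundant. Fam3c, a secreted cytokine-like protein, differed by 0.00, -0.12 and 0.00 in cortex, striatum and cerebellum. Mios, a subunit of a complex that relays amino acid supply to mTOR, lay between -0.05 and -0.02 in the 3 regions.

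Receptors, channels and other membrane genes numbered 12, with 7 higher and 4 lower in cortex, 4 higher and 7 lower in striatum, 7 higher and 3 lower in cerebellum, and 0 passing. Cttnbp2 was counted among them although it encodes a cortactin-binding protein. Kcnd2, a potassium channel of the A-type current, had 222, 271 and 301 CPM in PON2-deficient cerebellum and 228, 248 and 298 CPM in wild-type cerebellum (log2 change 0.08, adjusted p = 0.568, edgeR). Its groups overlapped almost wholly. Cftr, a chloride channel near 1 CPM in cortex, had 0.934, 1.14 and 1.47 CPM in PON2-deficient and 0.528, 0.970 and 1.19 CPM in wild-type cortex (log2 change 0.37, SE 0.16, adjusted p = 0.369, edgeR), and the change was 0.62 (adjusted p = 0.215) with the slope of expression against transcript length in each library as a covariate. Ptprz1, a receptor phosphatase of glia, differed by 0.01, -0.01 and -0.02 in cortex, striatum and cerebellum.

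Of 7 genes listed under ligands and matrix, 0 passed: 4 were higher and 2 lower in cortex and in striatum, and 1 higher and 5 lower in cerebellum. The list was a loose one and held Wnt2, Wnt16, Cped1, Col28a1, St7, Vwde and C1galt1. Wnt16, a Wnt ligand, had 0.179, 0.340 and 0.705 CPM in PON2-deficient striatum and 0.297, 0.570 and 0.820 CPM in wild-type striatum, a log2 change of -0.53 (adjusted p = 0.995, edgeR) at a very low level. The 3 cytoskeletal genes, Capza2, Wasl and Tes, lay between -0.24 and 0.08 in the 3 regions. Wasl, the neural WASP protein that drives actin branching, differed by 0.03 (SE 0.03) in cortex and 0.04 (SE 0.03) in cerebellum.

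Genes listed under RNA, DNA and protein turnover (7 measured, 0 passing) were 2 higher and 5 lower in cortex, 6 higher and 1 lower in striatum and 3 higher and 4 lower in cerebellum. The list was a loose one and held Rpa3, Umad1, Lsm8, Sem1, Tmem168, Bmt2 and Iqub. Lsm8, a subunit of the ring that binds U6 spliceosomal RNA, had changes of opposite sign in cortex and cerebellum. In cortex it had 13.7, 15.2 and 16.3 CPM in PON2-deficient libraries and 14.8, 16.3 and 18.0 CPM in wild-type libraries (log2 change -0.13, SE 0.05, adjusted p = 0.30, edgeR). In cerebellum it had 15.4, 16.8 and 18.2 CPM in PON2-deficient libraries and 13.4, 15.1 and 16.7 CPM in wild-type libraries (0.15, SE 0.04, adjusted p = 0.149, edgeR). The groups overlapped in both, and the test of the difference between the cortical and cerebellar effects gave -0.28 (adjusted p = 1, edgeR), where 0.0147% of all genes passed and 0 of 79 window genes. Of the window genes, 0 also passed for striatum against cerebellum (0.00981% of all genes) and for striatum against cortex (0.00%). An unadjusted p under 0.05 was reached by 6 window genes in the first of these tests (7.59%, against 4.15% of all genes), 5 in the second (6.33%, against 5.97%) and 2 in the third (2.53%, against 6.30%). Limma on the deposited log2 values passed Lsm8 alone, in the first (-0.30, adjusted p = 0.0432, where 0.0589% of all genes passed), as did limma with a replicate block (0.0687% of all genes). Bmt2, a sensor of S-adenosylmethionine upstream of mTOR, had 27.6, 30.5 and 32.0 CPM in PON2-deficient cortex and 25.95, 28.7 and 30.7 CPM in wild-type cortex (0.09, adjusted p = 0.315, edgeR).

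Within each sex, 0 window genes passed in any region with edgeR. The share of all genes that passed was 0.00527% in female cortex, 0.00527% in female striatum, 0.00534% in female cerebellum, 0.148% in male cortex, 0.00527% in male striatum and 0.0160% in male cerebellum. In females, an unadjusted p under 0.05 was reached by 8 window genes in cortex (10.4%, against 6.60% of all genes), 2 in striatum (2.60%, against 4.08%) and 4 in cerebellum (5.88%, against 5.16%). In males it was reached by 11 in cortex (14.3%, against 14.0%), 4 in striatum (5.19%, against 5.96%) and 9 in cerebellum (13.2%, against 10.6%). DESeq2 passed 2 window genes in male cortex (Sem1 and Capza2, against 2.28% of all genes) and 1 in male cerebellum (Gm44250, against 1.08%). The smallest adjusted p was that of Sem1, a small subunit of the proteasome lid 1.26 Mb from Pon2, in male cortex. It had 39.5, 41.2, 41.8, 42.0 and 39.2 CPM in the PON2-deficient males and 46.9, 46.1, 46.5, 45.3 and 44.4 CPM in the wild-type males, so that the male groups did not overlap (log2 change -0.17, adjusted p = 0.0655, edgeR). The males did not overlap for 2 of 77 window genes in cortex (2.60%), against 2.77% of all genes tested. The females did not overlap for 4 of 77 window genes in cortex (5.19%), against 1.43% of all genes tested. PON2-deficient females had 45.0, 44.6, 44.4, 43.4 and 42.6 CPM and wild-type females 45.9, 42.0, 41.1, 41.4 and 40.2 CPM, with overlap and a change of 0.06. Capza2, the actin capping protein, differed by 0.20 in male cortex (adjusted p = 0.0986, edgeR) and by -0.12 in female cortex. PON2-deficient males had 192, 201, 225, 211 and 205 CPM and wild-type males 173, 178, 168, 197 and 184 CPM, and these ranges met between 192 and 197 CPM. With each library's slope of expression against transcript length as a covariate, the male change of Capza2 was 0.05 (adjusted p = 0.865, edgeR) and its male minus female difference 0.15 (adjusted p = 0.758). In male cortex these slopes ran from -0.0337 to -0.00349 in wild-type and from -0.00696 to 0.0135 in PON2-deficient libraries. Over 7 other settings, this covariate among them, the male change of Sem1 lay between -0.18 and -0.16. Its adjusted p-values there ran from 0.00403 to 0.404 (edgeR, DESeq2 or limma, by setting). Without wild-type male 4 the adjusted p was 0.0470 for both genes, and without wild-type female 1 it was 0.0499 for Sem1. Of the 20 fits with a library left out, 2 passed Sem1 and 1 passed Capza2 in male cortex. The adjusted p-values of these fits reached 0.168 for Sem1 and 0.207 for Capza2 (edgeR). The male minus female difference of the effect was -0.24 for Sem1 and 0.32 for Capza2 (adjusted p = 0.249 for each, edgeR), and 0 window genes passed that test in any region, against 0.00% of all genes. An unadjusted p under 0.05 for it was reached by 8 window genes in cortex (10.4%, against 9.56% of all genes), 5 in cerebellum (7.35%, against 4.73%) and 1 in striatum (1.30%, against 4.31%), and DESeq2 passed 2 in cortex (Sem1 and Capza2, against 0.269% of all genes) and 1 in striatum, the pseudogene Gm43498 (0.0369%), which is named here after its values were seen.

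**Figure D3:**
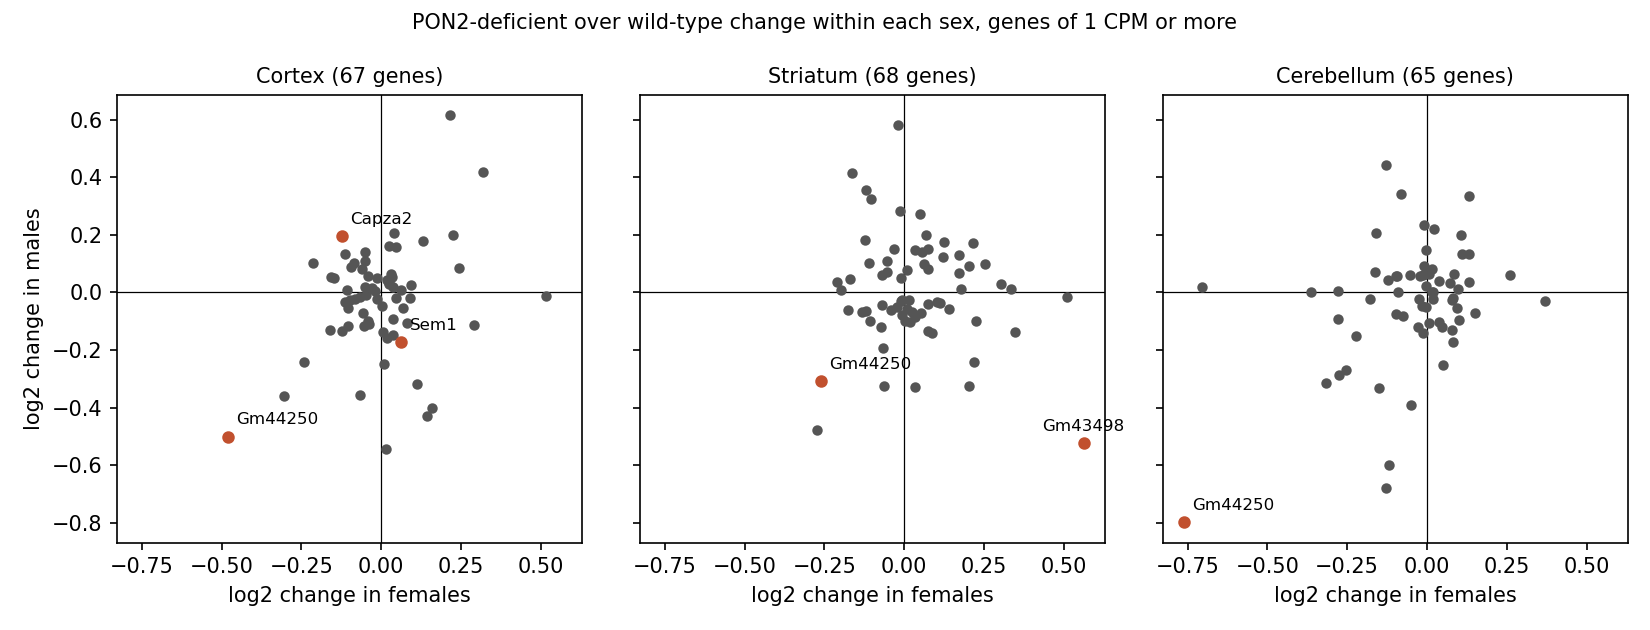
Log2 change of each window gene of at least 1 CPM in males (vertical axis) against that in females (horizontal axis), in cortex (67 genes), striatum (68) and cerebellum (65). Gm44250 lies low in both sexes (-0.76 in females and -0.80 in males of cerebellum), while Sem1 and Capza2 in cortex and Gm43498 in striatum lie on opposite sides of 0 in the sexes.

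Where the window genes are transcribed differed far more than what the genotype did. Between regions 66 of 79 passed for cortex against cerebellum (83.5%), 64 for striatum against cerebellum (81.0%) and 42 for striatum against cortex (53.2%). Of all genes, 79.6%, 79.8% and 57.0% passed (edgeR), so regional differences were about as common in the window as in the whole table. The mean level per kb of exon was highest for Ndufa4, with 115 CPM per kb in PON2-deficient and 121 in wild-type cortex, 119 and 117 in striatum, and 147 and 144 in cerebellum. Ndufa5 came next, with 80.7 CPM per kb in PON2-deficient and 84.6 in wild-type cortex. In wild-type cortex, striatum and cerebellum, 39, 41 and 38 window genes had at least 10 CPM and 13, 12 and 14 had less than 1 CPM.

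Several transcription factors of the window differed between the regions. Dlx6 had a median of 35.8 CPM in PON2-deficient and 39.2 CPM in wild-type striatum, 9.69 and 11.1 CPM in cortex, and 0 in cerebellum of both genotypes. Dlx5 had 12.9 and 12.5 CPM in PON2-deficient and wild-type striatum and 5.24 and 5.33 CPM in cortex, and in cerebellum at most 0.104 CPM in any library. Dlx6 likewise reached at most 0.104 CPM in any cerebellar library. Foxp2 was higher in striatum than in cerebellum by 2.08 (log2, SE 0.06) and than in cortex by 1.35 (SE 0.06), with medians of 59.3 and 56.1 CPM in PON2-deficient and wild-type striatum, 21.4 and 22.6 CPM in cortex and 12.7 and 13.2 CPM in cerebellum. Met, the receptor of hepatocyte growth factor, was lower in striatum than in cortex, with a log2 difference of -2.21 (SE 0.16) and medians of 1.44 and 1.67 CPM in PON2-deficient and wild-type striatum against 7.53 and 7.88 CPM in cortex.

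Other genes were highest in cerebellum. Cadps2 had medians of 72.0 and 67.5 CPM in PON2-deficient and wild-type cortex, 38.1 and 32.6 CPM in striatum and 230.5 and 225 CPM in cerebellum, a log2 difference of -1.66 (SE 0.06) for cortex and -2.68 (SE 0.06) for striatum against cerebellum. Kcnd2 differed by -1.51 (SE 0.04) and -0.57 (SE 0.04) in the same 2 contrasts. Vwde, a secreted protein with a von Willebrand factor domain, had medians of 2.37 and 3.74 CPM in PON2-deficient and wild-type cerebellum, while it reached at most 0.114 CPM in cortex and 0.559 CPM in striatum. Slc13a1, a sulfate transporter, had medians of 2.35 and 2.14 CPM in PON2-deficient and wild-type cerebellum and at most 0.406 CPM in any other library. Wnt2 showed the reverse, with medians of 8.65 and 7.29 CPM in PON2-deficient and wild-type striatum, 3.72 and 3.49 CPM in cortex and 0.0347 and 0.0692 CPM in cerebellum. For each of these genes the PON2-deficient and wild-type libraries of a region overlapped.

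**Figure D4:**
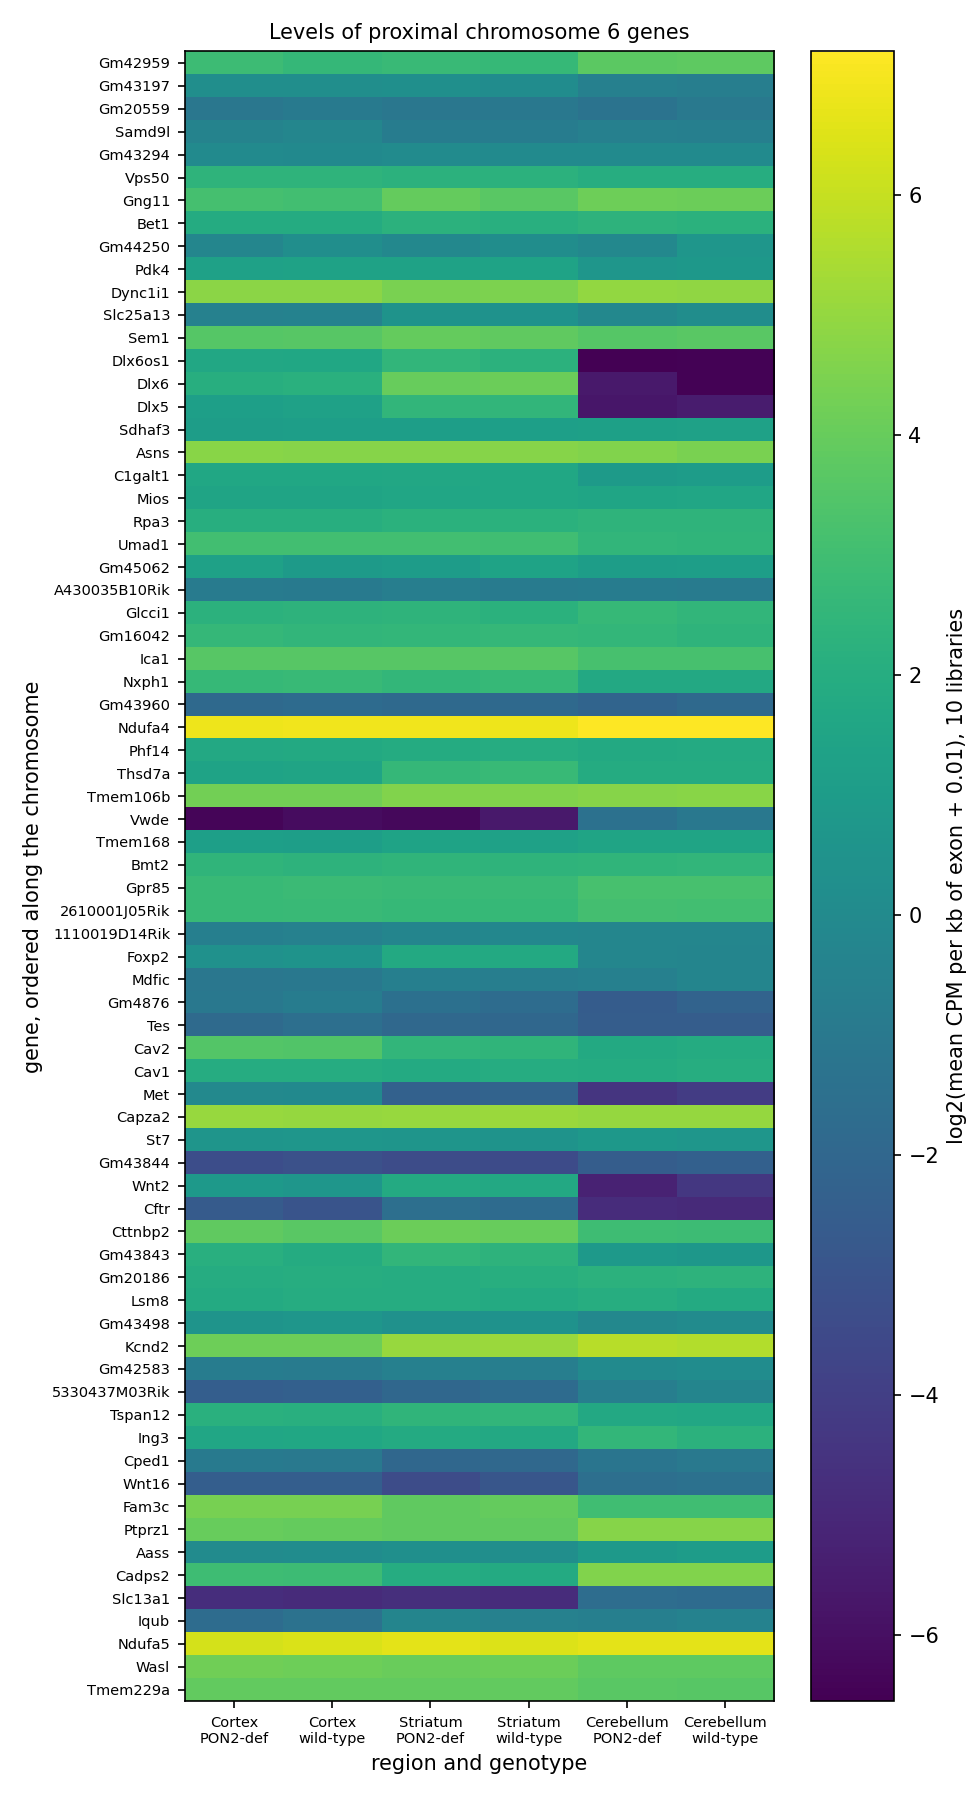
Mean level of 72 window genes of at least 1 CPM in some region, as log2 of CPM per kb of exon plus 0.01, in the order of the genes along the chromosome, with PON2-deficient beside wild-type for each region (10 libraries each). Neighbouring columns of a region look alike for nearly every gene, whereas Dlx6os1, Dlx6, Dlx5 and Wnt2 are darkest in cerebellum and Vwde is darkest in cortex and striatum.

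Promoters of the window genes, read from RefSeq (GRCm38.p6, 250 bases upstream of the start), were matched for 56 of the 79 genes. Of these, 33 (58.9%) had an observed over expected CpG ratio of at least 0.6, against 34% of the 32851 promoters of the table. Unlike the window genes, that table was not limited to measured genes or to 1 promoter per gene, so the shares here and below are not of like sets. The largest log2 difference between 2 regions had a median of 0.411 for the 33 CpG-rich genes and 0.677 for the 23 others. A GC box (GGGCGG on either strand) was found in 57.1% of the window genes' promoters and 32.7% of all, a CCAAT box (CCAAT on either strand) in 41.1% and 33.8%, and TATAAA on either strand in 12.5% and 12.4%. The palindrome TGACGTCA (CRE) was found in 1.79% of the window genes' promoters and 1.55% of all, and TAATTA in 5.36% and 4.84%. None of these motifs contains another.

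4 promoters are shown because their genes carry the comparisons above: Bet1 (minus strand, chr6:4086931-4087180) and Cttnbp2 (minus strand, chr6:18514870-18515119) for the small genotype differences, and Cadps2 (minus strand, chr6:23839422-23839671) and Vwde (minus strand, chr6:13224966-13225215) for the regional ones. Capitals mark GC boxes and CCAAT boxes on either strand, and each sequence runs 5′ to 3′ on the strand of its gene.
Bet1: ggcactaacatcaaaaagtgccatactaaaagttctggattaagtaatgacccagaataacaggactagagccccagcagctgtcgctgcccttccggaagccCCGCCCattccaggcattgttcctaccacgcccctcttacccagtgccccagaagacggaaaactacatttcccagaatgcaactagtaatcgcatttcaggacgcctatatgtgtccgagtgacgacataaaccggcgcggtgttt
Cttnbp2: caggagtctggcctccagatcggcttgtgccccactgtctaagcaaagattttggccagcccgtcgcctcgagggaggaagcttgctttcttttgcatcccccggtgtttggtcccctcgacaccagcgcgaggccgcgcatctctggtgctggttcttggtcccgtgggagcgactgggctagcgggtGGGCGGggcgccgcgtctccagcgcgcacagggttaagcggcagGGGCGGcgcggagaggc
Cadps2: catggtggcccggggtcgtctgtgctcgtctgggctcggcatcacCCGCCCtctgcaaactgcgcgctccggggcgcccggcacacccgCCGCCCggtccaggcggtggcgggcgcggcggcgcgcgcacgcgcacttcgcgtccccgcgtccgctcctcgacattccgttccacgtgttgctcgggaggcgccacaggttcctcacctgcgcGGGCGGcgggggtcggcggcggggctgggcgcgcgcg
Vwde: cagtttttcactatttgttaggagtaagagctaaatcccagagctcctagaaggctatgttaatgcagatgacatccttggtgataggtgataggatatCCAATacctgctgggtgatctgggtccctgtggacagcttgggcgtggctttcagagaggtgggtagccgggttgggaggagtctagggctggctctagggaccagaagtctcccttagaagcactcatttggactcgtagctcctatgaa
Both genes highest in cerebellum thus stand at opposite ends: Cadps2 has a GC content of 78% and a CpG ratio of 1.16, and Vwde a GC content of 50% and a CpG ratio of 0.20. Cttnbp2 (66.8%, 0.83) and Bet1 (50.8%, 0.77) lie between them.

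Several window genes share their start regions or their sequence with a neighbour. Vps50 starts 83 bases from Hepacam2 on the opposite strand, Umad1 114 bases from Rpa3, Phf14 311 bases from Ndufa4 and Lsm8 371 bases from Gm20186. The log2 changes of such partners were 0.15 for Lsm8 and -0.04 for Gm20186 in cerebellum, and -0.08 for Ndufa4 and -0.05 for Phf14 in cortex. Values of overlapping genes are uncertain where the counting could divide their reads, which applies to Dlx6 with Dlx6os1, Kcnd2 with Gm42583 and 5330437M03Rik, Tes with Gm4876, St7 with Gm43844 and Gm45062 with Umad1 and Glcci1. Gm45062 ranged from 0 to 20.2 CPM in PON2-deficient striatum and from 12.1 to 18.8 CPM in wild-type striatum, while Umad1 ranged from 36.6 to 49.85 CPM in PON2-deficient and 36.5 to 44.9 CPM in wild-type striatum.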

How the data were processed

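RNA was measured in 60 libraries of mouse cortex, striatum and cerebellum (5 per sex and genotype of a region), read as 150 nt pairs per the labels' protocols. The authors deposited expected counts per gene (estimated, 1.45% of them whole numbers), log2 CPM values and a voom precision weight, a score, per gene and library. The submitters' processing notes list Salmon, edgeR and limma; versions and genome build: not given in the sources used here. Log2 values as deposited by the authors equal the voom formula on the counts within 5.33e-14.

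Gene symbols and positions came from GENCODE M21 (GRCm38) by Ensembl ID, with 99.9% of 20423 IDs matched and 97.7% of the same version. Expected counts were rounded and fitted with edgeR 4.0.16 in R 4.3.3 (TMM scaling, filterByExpr, quasi-likelihood F tests, 2-sided), 1 fit per region over 20 libraries and 1 over all 60. The p-values were adjusted over all genes of a comparison by Benjamini and Hochberg, with a threshold of 0.05. CPM values use TMM-scaled library sizes, and at 26091911 to 28125224 counts per library the depth limits genes under 1 CPM most. DESeq2 1.42.0 and limma 3.58.1 were run as alternatives, with other scaling, no filter, covariates, a replicate block and each library left out in turn. The replicate block was fitted with limma over all 60 libraries and with edgeR within a region.

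The window genes, gene lists and markers were chosen with earlier results of these data known. Named genes were those called, the 10 of smallest p per region with at least 1 CPM and a symbol that is not a clone name, the 4 nearest to Pon2 on each side, up to 4 per role list and those of largest regional difference. Promoter sequences are from RefSeq (GRCm38.p6). The fits were tested on simulated data.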

Additional observations from a re-analysis of the deposited data

Results flagged for a closer look

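In each region, Gm44250 and the 10 genes of smallest genotype p with at least 1 CPM were examined, 66 groups of 10 libraries in all, of which 8 held a library that stood apart by Dixon's test at its 95% critical value of 0.466, where chance gives about 1 group in 20. Gm44250 had 8.55 CPM in wild-type male 2 of cortex, with the next library at 5.59 CPM, and 7.18 CPM in PON2-deficient female 5 of striatum, with the next at 4.22 CPM. Samd9l, an interferon-inducible gene proximal of Pon2, had 5.25 CPM in PON2-deficient male 4 of cortex (next 4.22 CPM) and 3.00 CPM in wild-type male 1 of cortex (next 4.26 CPM).

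PON2-deficient male 5 of striatum had 25.3 CPM of Bet1 (next 19.5 CPM) and 32.0 CPM of Gng11 (next 14.5 CPM), and it is the striatal library described above as standing apart. Iqub had 4.87 CPM in PON2-deficient female 5 of striatum (next 3.27 CPM), the library also flagged for Gm44250. That library had the highest mean log2 level of choroid plexus markers among the striatal libraries, 4.88, where the lowest was 0.71. A link between these values was not tested. Asns had 75.95 CPM in wild-type male 3 of cerebellum (next 58.7 CPM).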

How the results depend on the processing

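The counts of window genes that passed moved with the tool. DESeq2 passed 2 window genes by genotype in cortex, 2 in cerebellum, 2 in male cortex, 1 in male cerebellum, and 2 in cortex and 1 in striatum for the sex difference, where edgeR passed 0. DESeq2 also passed more genes of the whole table, 238 in cortex against 6 with edgeR. A single fit over all libraries passed 1 in cerebellum. Limma on the deposited log2 values passed 2 over the 3 regions (Gm44250, and Cttnbp2 with an adjusted p of 0.0135) and 1 for the cortex minus cerebellum difference (Lsm8). With each library left out in turn, the counts lay between 0 and 1 in cerebellum, between 0 and 2 in male cortex and between 1 and 2 over the 3 regions. Gm44250 over the 3 regions stayed between -0.56 and -0.48 (log2) in these 60 fits, with adjusted p-values of 0.000121 to 0.0015, and between -0.52 and -0.51 under 6 other settings. The window medians ranged from -0.0561 to -0.0121 in cortex, from -0.0189 to 0.0216 in striatum and from -0.0289 to -0.00427 in cerebellum, so that the striatal sign changed. Of the counts and medians under other settings, 467 stayed close to the main fit and 15 moved. A count stayed close if it was equal or of similar size. A median did so if it shifted by less than the SD over PON2-deficient libraries, so a median could change sign and still count as close. Of the values of named genes, 1633 kept their sign and their side of the threshold, 19 passed only under an alternative, and 0 reversed. The cause of these moves was not tested.

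The labels do not say what equal replicate numbers share, so the libraries entered the main fits as separate. If equal numbers across regions are 1 mouse, p-values of the fit over the 3 regions, that of Gm44250 included, rest on fewer independent animals than libraries. PON2-deficient and wild-type libraries of equal number had a correlation of deviations over 0.1 in 8 of 30 pairs (median 0.067), and equal numbers across regions in 26 of 60 (median 0.0865), with 35 of 60 matching best with their own number among 5 candidates, a hint from the data that some equal numbers across regions share a source. With a replicate block in limma on the deposited log2 values (correlation within blocks 0.0469), 2 window genes passed over the 3 regions (Cttnbp2 with an adjusted p of 0.0215 beside Gm44250), and 1 for the cortex minus cerebellum difference, Lsm8 with an adjusted p of 0.0285. Limma without the block passed the same genes, Cttnbp2 with an adjusted p of 0.0135, so these calls beyond edgeR came with the change of tool.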
